A study of Rattus norvegicus with 78 samples.

Results

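The hippocampus and the amygdala of untreated male rat pups were compared at postnatal day 14 (P14). The comparison took 10 of the 78 arrays of a larger study, 5 of each region, chosen by their labels for region, age and treatment. The pups came from the Low Responder line, rats bred for little locomotion in a new environment, and their dams drank plain water. In the rest of the study both regions were also sampled at P7, P21 and P75, and in offspring of dams whose water held paroxetine (10 mg per kg daily), an antidepressant that blocks serotonin reuptake, from before conception to weaning at P21. Each region's other control groups and its exposed P14 group held 5 arrays. Every group was male and of this line, and litters, or a pup that gave both regions, are not named in the labels. The p-values therefore cover the spread among arrays only, and that spread was estimated within the groups of all 78 arrays rather than from the 10 compared.

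As background, the hippocampus is a folded cortical structure built around glutamate neurons, the pyramidal cells of the CA fields and the granule cells of the dentate gyrus. The amygdala joins cortex-like lateral and basal nuclei, rich in glutamate neurons, with central and medial nuclei whose neurons are mostly GABAergic and share their origin and many genes with the striatum. The striatum also borders the amygdala, so a dissected block can hold both. Around the age studied here, rat pups are still forming synapses, myelin and the adult set of receptors in both regions.

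Each array gave 1 normalized intensity for each of 26419 features, of which 9740 carried a gene name used here, standing for 9621 genes. Values per array below are linear intensities in the order of replicates 1 to 5, and a level of one gene is not set against that of another. Differences are hippocampus minus amygdala on the log2 scale, ± the standard error of a limma fit to all 78 arrays, with n = 5 arrays per group. A gene is called higher or lower in the hippocampus only where its Benjamini-Hochberg adjusted p over all features was under 0.05. By this rule 1004 genes (10.4%) were higher and 1900 (19.7%) lower, and the median over all genes was -0.08. In 15.0% of the genes the values of both groups did not overlap. In whole tissue, fewer cells of a type and less RNA per cell cannot be told apart.

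Arrays of the same region correlated at 0.947 to 0.981 in the hippocampus and at 0.926 to 0.967 in the amygdala, against 0.914 to 0.950 between the regions. The hippocampal arrays did not form a single cluster. On the first principal component of all arrays, which held 35.8% of the variance, hippocampal replicates 1 to 3 lay between -3.10 and 0.57, replicates 4 and 5 at -36.0 and -47.0, and the amygdalar arrays between -74.4 and -54.3. Their interquartile range of log2 intensity was 3.24 and 3.25, against 3.07 on replicates 1 to 3 and 3.01 to 3.28 in the amygdala. Without hippocampal replicates 4 and 5, 990 genes (10.3%) were higher and 1993 (20.7%) lower. Of 202 called genes considered for naming, 9 were no longer called without these arrays, among them Gng7, Grin2b, Maob, Bdnf and Aldh1a1. Ttr, which was not called, became called. The median number of features with exactly equal values was 329 for 2 arrays of one region and 85 for an array of each. The 2 regions may therefore have passed through separate normalization, and every level set across them carries that limit. A control probe of random sequence read 45.2 ± 1.19 (SD, n = 5) in the hippocampus and 47.1 ± 1.47 in the amygdala, a difference of -1.95 with an exact two-sided permutation p of 0.0238. Its highest reading was 46.2 in the hippocampus and 49.7 in the amygdala. The called genes Grm8, Lhx8, Tdo2, Glra3 and Adra2a in the hippocampus had at least 1 array at or below the highest reading of their region. So did Ces1d, Cpg1, Trpc6, Slco1a4, Cdh1, Ntf3 and Tdo2 in the amygdala. The called genes Oprm1 and Gjb1 read as low as 49.0 and 47.9 in the hippocampus, close to the probe. The size of the differences of all these genes is uncertain at the dim end.

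The differences of greatest size among the leading genes were in genes with higher values in the amygdala, whose products have various roles. Leading genes of either direction were chosen by a rule that requires groups without overlap. The separation of their arrays therefore follows from the choice and is not a finding of its own. Calb2, which encodes the calcium-binding protein calretinin, read 616, 895, 797, 1082 and 983 on hippocampal arrays and 9752, 10439, 9785, 9669 and 11032 on amygdalar arrays. The difference was -3.56 ± 0.15 or 11.8-fold (adjusted p = 1.67e-30). Penk, the precursor of the enkephalin opioid peptides, read 2096, 1586, 1694, 2421 and 1814 on hippocampal arrays and 17208, 19424, 19472, 19978 and 20391 on amygdalar arrays. Hippocampal replicates 4 and 5 lay with the other hippocampal arrays, the groups were far apart, and the difference was -3.34 ± 0.12 (adjusted p = 1.36e-33). Atp2b4, a calcium pump of the plasma membrane, read 1025, 818, 761, 1166 and 1122 on hippocampal arrays and 8073, 7840.2, 8179, 9086 and 8932 on amygdalar arrays, with a difference of -3.12 ± 0.12.

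Grm8, a presynaptic metabotropic glutamate receptor, was close to the dim end of the arrays in the hippocampus. It read 38.0, 78.9, 47.1, 55.6 and 77.5 on hippocampal arrays and 685, 576, 550.2, 539 and 426 on amygdalar arrays, a difference of -3.26 ± 0.22 (adjusted p = 9.08e-20). Rgs9, a regulator of G protein signalling with a form typical of the striatum, read 122, 118, 162, 209 and 232 on hippocampal arrays and 1387, 1556, 1576, 1532 and 691 on amygdalar arrays. Amygdalar replicate 5 read less than the other amygdalar arrays, and the difference was -2.99 ± 0.22.

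Six3, a homeobox transcription factor that takes part in forming the striatum from the ventral forebrain, read 179, 112, 129, 109.5 and 116 on hippocampal arrays and 1658, 1562, 1222, 1482 and 1411 on amygdalar arrays. Six3 differed by -3.53 ± 0.18 (adjusted p = 3.29e-26). Its promoter window, 250 bases before to 50 after the start of the gene from RefSeq (build GRCr8, chr6:14796207-14796506, minus strand), is shown because this gene was the leading transcription factor on the amygdalar side. Capitals mark the letters CCAAT read on either strand.
Six3: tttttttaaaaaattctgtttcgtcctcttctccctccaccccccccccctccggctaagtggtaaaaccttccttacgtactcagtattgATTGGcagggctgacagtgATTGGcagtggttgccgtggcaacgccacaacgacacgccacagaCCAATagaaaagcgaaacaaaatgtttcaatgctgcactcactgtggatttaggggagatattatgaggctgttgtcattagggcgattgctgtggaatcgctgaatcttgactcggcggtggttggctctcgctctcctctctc
The window held the motif 3 times. Of all 27457 promoter windows of this length, searched on both strands, 37.7% held the letters CCAAT at least 1 time.

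The other genes among the 15 with the most negative differences had various roles. Lypd1, a modulator of nicotinic receptors, differed by -2.94 ± 0.13, and Hap1, which binds huntingtin, by -2.68 ± 0.16. Cyp26b1, an enzyme that breaks down retinoic acid and marks parts of the amygdala, read 101, 159, 134.6, 101 and 253 on hippocampal arrays and 698, 894, 700.1, 1035 and 850.0 on amygdalar arrays and differed by -2.55 ± 0.22. Sema3a, a secreted cue for growing axons, read 106, 103, 115, 97.0 and 166 on hippocampal arrays and 899, 895, 898, 923 and 619.9 on amygdalar arrays. The lowest amygdalar value of Sema3a was on replicate 5, and the difference was -2.87 ± 0.22. Tppp3, a tubulin-binding protein, Hs3st2, an enzyme that sulfates heparan sulfate chains, Hpcal1, a neuronal calcium sensor, and Asic2, an acid-sensing ion channel, differed by -2.83, -2.65, -2.45 and -2.40.

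The genes with the most positive differences had smaller differences than these and included Homer3, Grik4, Grin2a and the transcription factor gene Neurod1. Homer3, a scaffold that links glutamate receptors to calcium stores, read 701, 1107, 651, 1211 and 1282 on hippocampal arrays and 213, 358, 145, 343 and 127 on amygdalar arrays. The difference was 2.13 ± 0.20 (adjusted p = 2.65e-14). Grik4, a kainate receptor subunit known for its level in CA3 pyramidal cells, read 1295, 1184, 1154, 1358 and 1571 on hippocampal arrays and 489, 309, 275, 266 and 442 on amygdalar arrays and differed by 1.92 ± 0.16. Grin2a, the NMDA receptor subunit that increases as synapses mature, read 3602, 3330.0, 3694, 5202 and 3965 on hippocampal arrays and 1076, 1268, 1018, 1219.5 and 1292 on amygdalar arrays. The highest hippocampal array was replicate 4, and the difference was 1.74 ± 0.13 (3.34-fold).

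Neurod1, a basic helix-loop-helix transcription factor needed to form the granule cells of the dentate gyrus, read 883, 672, 486, 842 and 1008 on hippocampal arrays and 236, 275, 195, 149 and 105 on amygdalar arrays, a difference of 2.05 ± 0.25 (adjusted p = 8.72e-10). Its window (chr3:84770405-84770704, minus strand, GRCr8, RefSeq) is shown as that of the leading transcription factor on the hippocampal side, with CANNTG in capitals, the letters that basic helix-loop-helix proteins bind.
Neurod1: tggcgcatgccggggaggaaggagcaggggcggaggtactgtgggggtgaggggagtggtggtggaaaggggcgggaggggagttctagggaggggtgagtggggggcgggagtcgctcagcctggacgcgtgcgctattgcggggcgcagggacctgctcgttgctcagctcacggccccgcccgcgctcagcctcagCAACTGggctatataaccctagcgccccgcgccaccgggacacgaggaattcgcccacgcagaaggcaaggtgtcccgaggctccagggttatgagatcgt
The motif occurred 1 time in this window, whereas CCAAT did not occur on either strand. Of all windows of this length, 71.6% held at least 1 CANNTG, which reads the same on both strands.

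Wipf3, which binds actin regulators, read 14029, 14391, 13943, 16462 and 18221 on hippocampal arrays and 4363, 3918, 3251, 5558 and 4416 on amygdalar arrays. Hippocampal replicates 4 and 5 were the highest, and without them the difference was 1.74 against 1.85 with them. Nptx1, a secreted pentraxin that clusters glutamate receptors, differed by 1.75 ± 0.13, and Mas1, a receptor of angiotensin fragments known for its level in the hippocampus, by 1.75 ± 0.19. Lhx9, a LIM homeobox factor, differed by 1.79 ± 0.21 with 806, 739, 753, 847 and 751 in the hippocampus and 226, 312, 276, 250.4 and 119.8 in the amygdala. Prss35, a serine protease, Cabp7, a calcium-binding protein, Ces1d, a carboxylesterase, FAM187A and Cpg1 differed by 2.01, 1.67, 1.80, 1.92 and 1.74. The first and the fifth place of these 15 went to olfactory receptor genes, Or52ab2b (2.28 ± 0.26) and Or5d37 (2.00 ± 0.27). Receptors of the nose are a family that brain tissue hardly expresses, and of 1239 measured 136 were higher, 51 lower and 1052 not called.

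**Figure D1:**
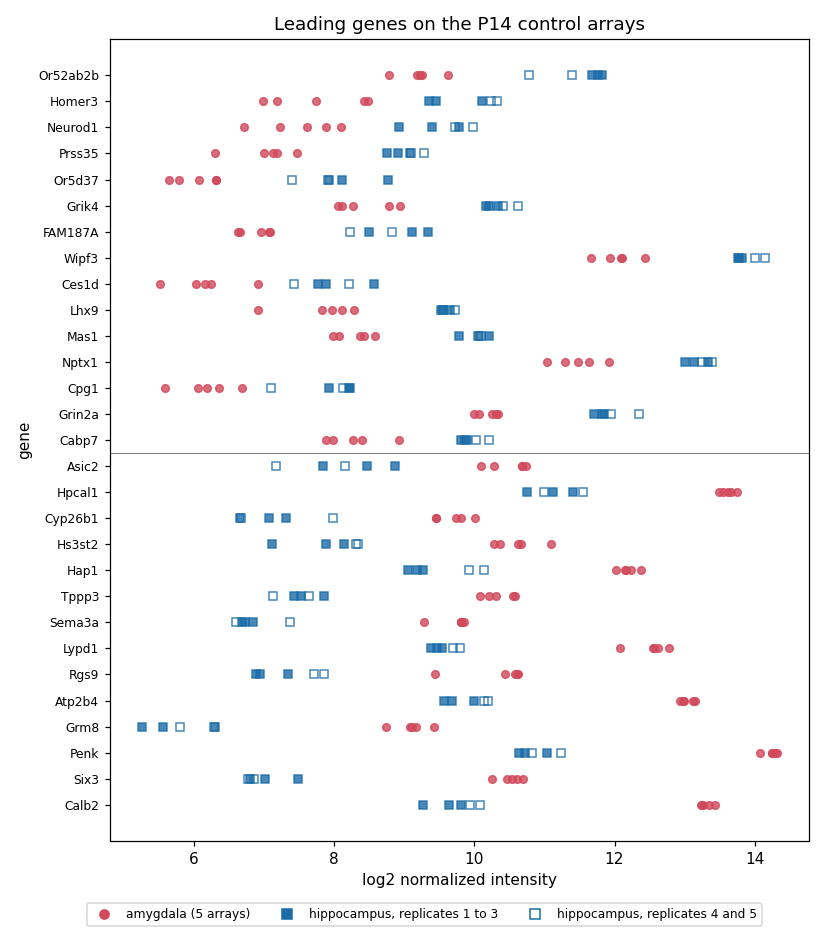
Log2 normalized intensity (horizontal axis) of the 15 genes with the largest positive region difference and 14 of the 15 with the largest negative one, one row per gene, on each of the 10 P14 control arrays. Circles are amygdalar arrays, filled squares hippocampal replicates 1 to 3 and open squares replicates 4 and 5; the rule that chose the genes requires that circles and squares do not overlap.

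The labelled regions were checked against marker lists. All list counts stand beside the shares over all genes, 10.4% higher and 19.7% lower, and no list was tested against these shares. Of 16 measured markers of amygdala nuclei, 10 were lower in the hippocampus, 1 (Lhx9) was higher and 5 were not called, with a list median of -1.08. Nr2f2, a nuclear receptor of caudal forebrain neurons, read 598, 684, 578, 543 and 1140.2 on hippocampal arrays and 2869.7, 3249.6, 2396, 3299 and 3104 on amygdalar arrays and differed by -2.12 ± 0.15. Cdh13, an adhesion protein, differed by -2.39 ± 0.13, Dlk1, a Notch-like protein, by -1.67 ± 0.14, Prkcd, a kinase that marks neurons of the central nucleus, by -1.26 ± 0.17, and Esr1, the estrogen receptor of the medial nucleus, by -1.03 ± 0.20. Their summed intensity ranged from 4850.2 to 5541 on hippocampal arrays and from 14674 to 18235 on amygdalar ones.

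Genes of striatal projection neurons were on the amygdalar side to a similar extent. Of 21 measured, 15 were lower in the hippocampus, 1 was higher and 5 were not called, with a median of -0.79. Drd2, the dopamine D2 receptor, read 205, 229, 239.5, 159.8 and 342 on hippocampal arrays and 1218, 1354, 1152, 990.1 and 1256 on amygdalar arrays and differed by -2.38 ± 0.22. Ppp1r1b, which encodes the dopamine-regulated phosphatase inhibitor DARPP-32, read 819.8, 620.4, 782, 761 and 1082 on hippocampal arrays and 2442, 2774, 2190.0, 2608 and 2317 on amygdalar arrays, a difference of -1.62 ± 0.16. Drd1, the D1 receptor, differed less, by -0.79 ± 0.17, while Adora2a, the adenosine receptor of neurons that carry Drd2, differed by -1.08 ± 0.14, and Rxrg, a retinoid receptor, by -2.04 ± 0.15. The gene called higher was Gng7, a G protein subunit, at 0.27 ± 0.09, or 0.18 and not called without hippocampal replicates 4 and 5. Foxp1 (0.06 ± 0.14) and Isl1 (-0.24 ± 0.30), transcription factors of striatal neurons, were among those not called. The summed intensity of the list was 12404 to 15677 in the hippocampus and 38552 to 42379 in the amygdala. Central amygdala neurons and striatal tissue share these markers, so the source of this RNA cannot be told apart here.

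The few measured transcription factors divided along the ventral and dorsal forebrain. Of 26 listed factors of the ventral forebrain (subpallium), 6 were measured. Of the measured ones, 4 were lower in the hippocampus and 2 were not called. Besides Six3 these were Dlx5 (-2.20 ± 0.15), which drives the making of GABA neurons, Lhx8 (-1.59 ± 0.25), known from forebrain cholinergic neurons, and Ebf1 (-1.32 ± 0.25). Dlx5 read 225, 186, 273, 249.6 and 232 on hippocampal arrays and 1174, 900.2, 1132, 1407 and 812 on amygdalar arrays. Of 24 listed factors of the dorsal forebrain (pallium), 8 were measured, of which 6 were higher, none lower and 2 not called. Among the higher ones, Lhx9 is also on the amygdala list and Lef1 on the thalamic list. Neurod2, a relative of Neurod1 in glutamate neurons, read 2967, 3124, 3161, 3339 and 3391 on hippocampal arrays and 1454, 1795, 1878, 1741 and 1344 on amygdalar arrays and differed by 0.97 ± 0.11. Lef1, a Wnt pathway factor needed for the hippocampus to form, differed by 0.86 ± 0.14, Nfix by 0.76 ± 0.10 and Nfia by 0.53 ± 0.11, both nuclear factor I proteins.

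Markers of hippocampal cells went in both directions. Of 8 measured CA pyramidal markers, 4 were higher (Grik4, Nptx1, Nr3c2 and Pou3f1), 2 lower and 2 not called. Wfs1, a protein of the endoplasmic reticulum that marks CA1, was lower at -1.15 ± 0.18, with 1133, 1255, 925, 1359 and 1878 in the hippocampus and 2682, 2974, 3121, 2509 and 2880.2 in the amygdala, and Prss12, a protease, was lower at -1.22 ± 0.21. The highest hippocampal value of Wfs1 was below the lowest amygdalar one. Of 18 dentate granule cell markers 5 were measured, and of these 1 was higher (Trpc6, a cation channel, 0.99 ± 0.24), 3 were lower and 1 was not called. The lower ones were Calb1, which encodes calbindin and is carried by mature granule cells (-0.78 ± 0.14), Marcksl1 (-0.79 ± 0.15) and Tdo2, a tryptophan-degrading enzyme of maturing granule cells (-0.89 ± 0.25). Calb1 read 567, 466, 535, 637 and 487 on hippocampal arrays and 1131, 887, 958, 926 and 734 on amygdalar arrays, and Tdo2 read 36.5, 37.7, 31.8, 40.6 and 33.2 on hippocampal arrays and 49.3, 65.4, 54.8, 126 and 57.9 on amygdalar arrays, values near that of the random probe in the hippocampus. Several defining markers, such as Prox1, were not among the named features used here, so the dentate gyrus was checked on few genes.

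**Figure D2:**
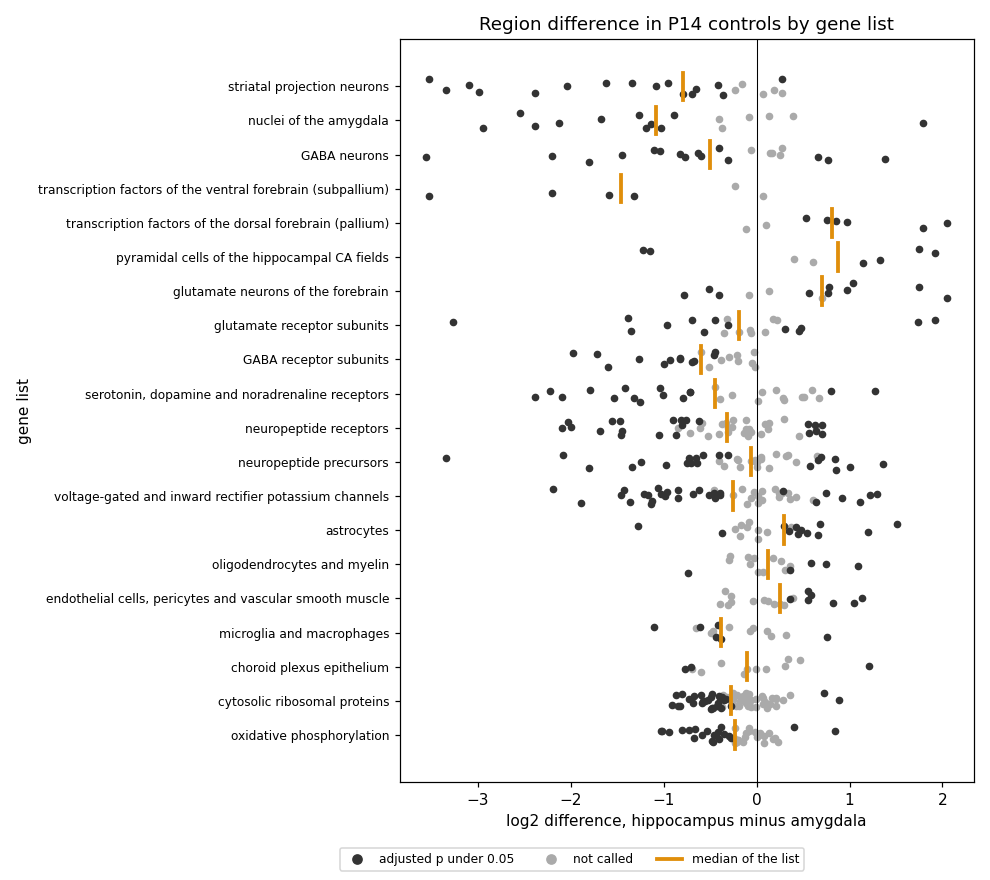
Log2 difference between hippocampus and amygdala at P14 (horizontal axis) for the measured members of 20 gene lists, one row per list, with the list median as a vertical bar; the GABA receptor row also holds glycine receptors. Dark points passed an adjusted p under 0.05 and grey points did not. The ventral forebrain, amygdala and striatal lists lie mostly left of 0, and the dorsal forebrain and glutamate neuron lists mostly right of it.

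Genes of glutamate neurons were more often higher in the hippocampus than lower. Of 13 measured, 7 were higher, 3 lower and 3 not called (median 0.70). Slc17a7, the vesicular glutamate transporter of cortical neurons, read 15301, 16946, 19321, 22478 and 24385 on hippocampal arrays and 9636, 8779.5, 9091, 9702 and 10168 on amygdalar arrays. All hippocampal arrays were above all amygdalar ones, with replicates 4 and 5 the highest, and the difference was 1.04 ± 0.10, or 0.85 without those arrays. Camk2a, the calcium-dependent kinase of excitatory synapses, differed by 0.78 ± 0.10. The lower ones were Slc30a3, which loads zinc into synaptic vesicles (-0.78 ± 0.12), Nrgn, a postsynaptic calmodulin-binding protein (-0.51 ± 0.10), and Cck, the precursor of cholecystokinin (-0.41 ± 0.09).

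Genes of GABA neurons were mostly on the amygdalar side. Of 20 measured, 12 were lower in the hippocampus, 3 higher and 5 not called (median -0.50). Slc32a1, the transporter that fills vesicles with GABA, read 1110.0, 1071, 1358, 1449 and 1923 on hippocampal arrays and 3727, 3769, 3787, 3919 and 3287 on amygdalar arrays and differed by -1.45 ± 0.13. Of the enzymes that make GABA, Gad2 was lower (-0.77 ± 0.13), while Gad1, with 1181, 1499, 1698, 2086 and 2065 in the hippocampus and 1859, 1459, 1612, 2085 and 1766 in the amygdala, overlapped between the regions (-0.06 ± 0.14) and was not called. Sst, the precursor of somatostatin, read 2518, 2978, 2522, 2578 and 4123 on hippocampal arrays and 10934, 8670.1, 9664, 12007 and 9401 on amygdalar arrays, a difference of -1.80 ± 0.10. Reln, a secreted protein of interneurons and Cajal-Retzius cells, was higher in the hippocampus (1.38 ± 0.15), with 2501, 2954, 3255, 4067 and 3487 against 1387, 1250.1, 1202, 1026 and 1335. Pvalb, which encodes parvalbumin of fast-spiking interneurons, was also higher (0.77 ± 0.18).

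Among glutamate receptor subunits, 5 of 21 measured were higher in the hippocampus, 8 lower and 8 not called. The higher ones included, beside Grik4 and Grin2a, Gria2, a subunit that limits calcium entry through AMPA receptors (0.46 ± 0.10), and Grin2b, the NMDA subunit typical of young synapses (0.30 ± 0.12). The call of Grin2b rests on the arrays that stood apart, since without hippocampal replicates 4 and 5 it differed by 0.12 and was not called. Grin1, the subunit that every NMDA receptor needs, differed by -0.07 ± 0.10 and was not called, with 3719, 4099, 4164, 5173 and 4103 in the hippocampus and 3703, 4426, 4066, 4469.6 and 5702 in the amygdala. The lower ones included Grm8, Grm4, another presynaptic receptor (-1.35 ± 0.17), and Grik3, a kainate receptor subunit (-1.39 ± 0.15). The NMDA receptor gene that differed most was Grin2a, while its obligatory partner overlapped between the regions.

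Of 21 measured receptor subunits for GABA and glycine, none was higher in the hippocampus, 12 were lower and 9 were not called (median -0.60). Gabra3, a GABA-A subunit that is prominent in young brain, read 293, 399.5, 311, 338 and 603 on hippocampal arrays and 1351, 1254, 974, 1399 and 1254 on amygdalar arrays and differed by -1.72 ± 0.15. Gabrg3 differed by -1.60 ± 0.21. Gabra5, a subunit known for its level in the hippocampus, read 1295, 1707, 1608, 1779 and 1934 on hippocampal arrays and 1429, 1642, 1444, 1778 and 2145 on amygdalar arrays, a difference of -0.02 ± 0.12 that was not called. The glycine receptor subunits Glra2 (-1.27 ± 0.17), Glra3 (-1.98 ± 0.26) and Glrb (-0.82 ± 0.13) were lower. Glra3 read 55.3, 37.3, 47.9, 40.8 and 52.9 in the hippocampus, around the level of the random probe, so its difference is no more than a lower bound in size. Glra2, the form of young neurons, read 182, 152, 229, 208 and 219 on hippocampal arrays and 438, 509.5, 456, 419.7 and 544 on amygdalar arrays.

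Receptors for serotonin, dopamine and noradrenaline were lower in the hippocampus in 13 of 27 cases, higher in 2 and not called in 12. Htr1a, the inhibitory serotonin receptor that is abundant on hippocampal pyramidal cells, was one of the 2 that were higher, with 734, 606, 767, 756 and 776 on hippocampal arrays and 188, 378, 307, 356 and 309 on amygdalar arrays. The groups did not overlap, and the difference was 1.28 ± 0.19 (adjusted p = 7.83e-08). Htr6, an excitatory receptor, was the other (0.80 ± 0.21), with 342, 350.5, 434, 399 and 164 in the hippocampus and 251.5, 133, 173, 193 and 191 in the amygdala, so that hippocampal replicate 5 lay within the amygdalar range. Htr1b, a presynaptic serotonin receptor, read 136, 137, 98.1, 174 and 99.1 on hippocampal arrays and 687, 572, 573, 588 and 536 on amygdalar arrays, a difference of -2.23 ± 0.20. Htr2a (-1.004 ± 0.16), Htr2c (-1.25 ± 0.25) and Htr5a (-1.32 ± 0.19) were lower too, and Htr7 differed by 0.02 ± 0.31 and was not called. Slc6a4, the serotonin transporter that paroxetine blocks, and Tph2, which makes serotonin in neurons, differed by -0.13 ± 0.24 and -0.04 ± 0.30. Neither was called, and as background, the neurons that make these transcripts have their cell bodies in the brain stem. Their lowest amygdalar values, 45.9 and 49.3, were not above the highest reading of the random probe (49.7). The missing calls therefore do not show equal levels.

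The adrenergic receptors Adra2a (-2.09 ± 0.21) and Adra1b (-1.79 ± 0.22) were lower in the hippocampus. Adra2a read 62.3, 58.6, 96.0, 77.6 and 32.8 on hippocampal arrays and 300.3, 229.6, 289.9, 285 and 223 on amygdalar arrays. Adra2c was lower at -1.54 ± 0.31, with 294, 256, 464, 303 and 2235 in the amygdala, where replicate 5 stood far above the other 4.

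Of 46 measured neuropeptide receptors, 15 were lower in the hippocampus, 6 higher and 25 not called. Oprm1, the mu opioid receptor, read 79.7, 49.0, 64.2, 109 and 123 on hippocampal arrays and 356, 399.6, 224, 409 and 292 on amygdalar arrays, a difference of -2.03 ± 0.21, and Oprk1, the kappa receptor, differed by -1.45 ± 0.23. The delta receptor gene Oprd1 differed by 0.14 ± 0.25 and was not called, so the opioid receptors did not all pass the test. Oprd1 read as low as 49.5 in the hippocampus and 47.1 in the amygdala, near the random probe, so equal levels are not shown. The lowest hippocampal value of Oprm1, 49.0, was near the probe too, so the size of its difference is uncertain. Crhr1, the main receptor of corticotropin-releasing hormone, read 139, 276, 151, 143 and 181 on hippocampal arrays and 538, 566, 434, 389 and 475 on amygdalar arrays and differed by -1.47 ± 0.24. Mc4r, a melanocortin receptor (-1.45 ± 0.23), Tacr3, the neurokinin B receptor (-2.09 ± 0.24), Trhr, the receptor of thyrotropin-releasing hormone (-1.99 ± 0.26), and Hcrtr1, an orexin receptor (-1.56 ± 0.25), were lower as well. Npy2r, a presynaptic receptor of neuropeptide Y (0.56 ± 0.17), and Sstr4, a somatostatin receptor known from CA1 (0.63 ± 0.14), were higher.

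**Figure D3:**
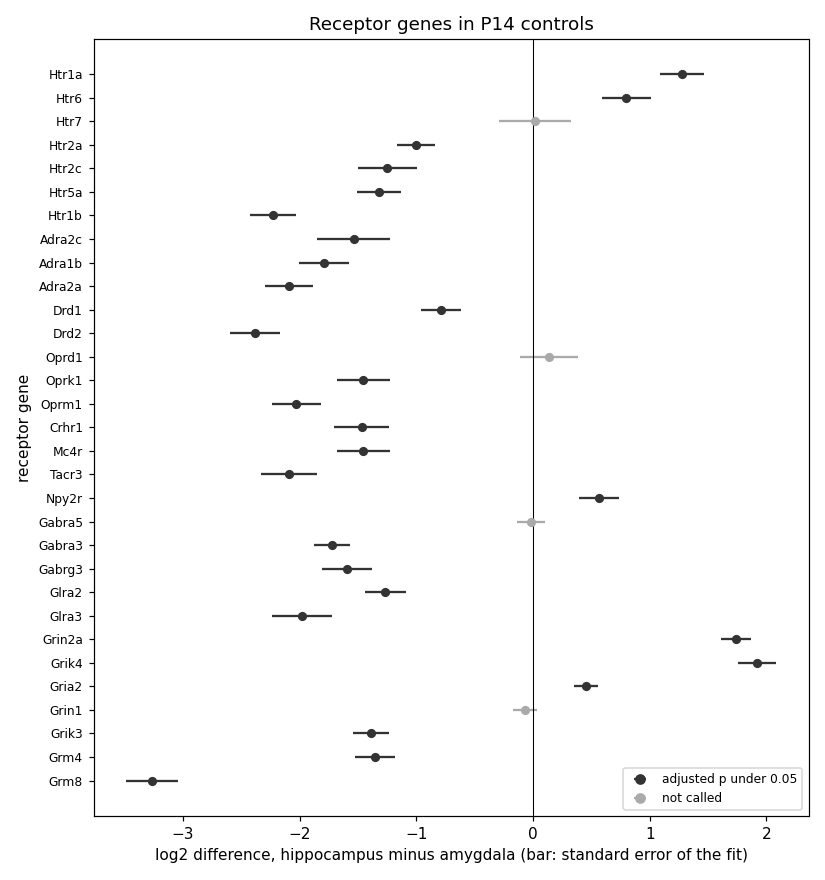
Log2 difference between hippocampus and amygdala at P14 (horizontal axis) for 31 receptor genes, one row per gene; bars are 1 standard error of the limma fit. Dark points passed an adjusted p under 0.05 and grey points did not. Htr1a, Grin2a and Grik4 lie right of 0, while Grm8, Drd2, Htr1b, Adra2a, Tacr3 and Oprm1 lie 2 or more units left of it.

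Neuropeptide precursors were lower in the hippocampus in 14 of 39 cases and higher in 7, and 18 were not called. Beside Penk and Sst, Grp, which encodes gastrin-releasing peptide of the lateral amygdala, read 319, 471, 339.6, 265 and 376 on hippocampal arrays and 1561, 1621, 1302, 1550.4 and 1377 on amygdalar arrays, a difference of -2.09 ± 0.14. Vgf, a secreted precursor that follows neuronal activity, differed by -1.24 ± 0.12, Tac1, the precursor of substance P, by -1.34 ± 0.25, and Adcyap1, the precursor of the peptide PACAP, by -0.70 ± 0.11. Ucn, which encodes urocortin, was higher (1.36 ± 0.22), with 886, 664, 713, 454 and 609.7 in the hippocampus and 328, 385, 295, 164 and 172 in the amygdala. Crh, the precursor of corticotropin-releasing hormone, was called higher (0.84 ± 0.31) with an overlap of the groups, reading 792, 817, 940.3, 486 and 239.7 on hippocampal arrays and 576, 239, 305, 155 and 595 on amygdalar arrays. Hippocampal replicates 4 and 5 were the lowest of their group for Crh, and without them the difference was 1.36.

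Among 16 genes of the stress axis, 6 were higher in the hippocampus, 4 lower and 6 not called. Nr3c2, the mineralocorticoid receptor, which is known to be abundant in the hippocampus, read 1965, 1974, 1875, 2269 and 1929 on hippocampal arrays and 727, 864, 678, 905 and 829 on amygdalar arrays. No hippocampal array fell within the amygdalar range, and the difference was 1.33 ± 0.14 (adjusted p = 3.1e-12). Nr3c1, the glucocorticoid receptor, read 202, 108, 192, 181 and 369 on hippocampal arrays and 203, 219, 85.0, 108 and 150.0 on amygdalar arrays, with overlapping groups and no call (0.44 ± 0.24). Hsd11b1, which regenerates active corticosterone, was higher at 1.06 ± 0.16, or 0.82 without replicates 4 and 5. Fkbp5, a chaperone that glucocorticoids induce, was higher at 0.81 ± 0.18, and Crhbp, which binds corticotropin-releasing hormone, was lower at -0.63 ± 0.17.

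Of 47 measured potassium, pacemaker and related channel genes, 22 were lower in the hippocampus, 7 higher and 18 not called. Hcn4, a pacemaker channel subunit known from the thalamus and deep nuclei, read 654, 693, 712, 608 and 712 on hippocampal arrays and 3054, 2984, 2635, 3101 and 3658 on amygdalar arrays, a difference of -2.19 ± 0.13 (adjusted p = 3.54e-23). Kcnh7 (-1.89 ± 0.25) and Kcnh2 (-1.42 ± 0.19), which carry ERG currents, and Kcnb2 (-1.21 ± 0.15) were lower. Kcna1, a channel of axons that damps firing, was higher, with 2734, 3298, 2808, 2619 and 3237 on hippocampal arrays and 1452, 1096, 1266, 1244 and 1241 on amygdalar arrays and a difference of 1.22 ± 0.11. Kcnj6, a channel that inhibitory G protein-coupled receptors open, was higher by 0.92 ± 0.12. Of 26 sodium and calcium channel genes, 7 were higher and 9 lower. The sodium channel beta subunits Scn3b (1.05 ± 0.11) and Scn2b (0.75 ± 0.18) were higher, as was the alpha subunit Scn8a (0.64 ± 0.13). Cacna1g, a low-voltage calcium channel (-1.40 ± 0.12), and Cacna2d2, an auxiliary subunit (-1.55 ± 0.21), were lower.

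Genes of synapses were divided. Of 35 release genes, 9 were higher, 10 lower and 16 not called, with Cplx1 (0.67 ± 0.10), Cplx2 (0.70 ± 0.10), both complexins, and Bsn, a scaffold of the active zone (0.91 ± 0.12), among the higher and Sv2c, a vesicle protein of the basal ganglia (-1.31 ± 0.19), and Rab3b (-1.45 ± 0.18) among the lower. Syp, the vesicle protein synaptophysin, differed by 0.09 ± 0.09 and was not called. Of 32 postsynaptic genes, 7 were higher, 11 lower and 14 not called. Camk2d, a kinase relative of Camk2a, read 742, 879.8, 937, 562 and 1048 on hippocampal arrays and 2504, 2771, 2576, 2521 and 2931 on amygdalar arrays and differed by -1.70 ± 0.15, opposite in sign to Camk2a. Itpr1, a calcium channel of the endoplasmic reticulum, was higher by 1.18 ± 0.14.

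Adhesion and guidance genes included a ligand and receptors with opposite signs. While Sema3a was lower, its receptor Nrp1 read 1414, 1490.4, 1003, 1640.1 and 1198 on hippocampal arrays and 566, 439, 738, 272 and 261 on amygdalar arrays, higher by 1.66 ± 0.20, and Nrp2, the receptor of related semaphorins, was higher by 1.06 ± 0.15. Of 17 measured guidance genes 3 were higher, 5 lower and 9 not called, among them Epha7, an ephrin receptor (1.02 ± 0.12), and its ligand Efna5 (-1.39 ± 0.22). Of 10 cadherins, 7 were lower and 1, Cdh1, was higher (1.10 ± 0.29). Cdh22 differed by -1.77 ± 0.18. Among growth factors Ntf3, the neurotrophin-3 gene, was higher (1.38 ± 0.27), as were Fgfr1, a receptor of fibroblast growth factors (1.20 ± 0.10), and Dkk3, a secreted protein known from hippocampal pyramidal cells (1.25 ± 0.11), while Nrg1, a ligand of ErbB receptors (-1.78 ± 0.20), and Bmp3 (-1.77 ± 0.17) were lower. Bdnf differed by 0.49 ± 0.18 and was called, but not without hippocampal replicates 4 and 5 (0.50). Over the 40 growth factor genes 9 were higher, 11 lower and 20 not called.

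Astrocyte genes were more often higher in the hippocampus. Of 21 measured, 10 were higher, 2 lower and 9 not called (median 0.30), and without hippocampal replicates 4 and 5, 7 were higher and 4 lower. Gfap, the filament protein of astrocytes, read 2736, 2736, 3438, 3149.5 and 2978 on hippocampal arrays and 1140.5, 922, 922, 1253 and 1046 on amygdalar arrays, a difference of 1.51 ± 0.13. Slc1a3, a glutamate transporter of glia, read 6548, 6100.1, 6438, 7534 and 8423 on hippocampal arrays and 2839, 3887, 3143, 3029.6 and 2415 on amygdalar arrays and differed by 1.20 ± 0.11. Aqp4, a water channel, was higher by 0.66 ± 0.11, and Kcnj10, a potassium channel, by 1.11 ± 0.15. Id4, a regulator of neural precursors that astrocytes also carry, was lower (-1.27 ± 0.20). The summed intensity of the astrocyte list overlapped between the regions (171158 to 210944 against 163288 to 181202).

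Of 16 oligodendrocyte genes, 4 were higher, 1 lower and 11 not called, and without hippocampal replicates 4 and 5, 2 were higher and 2 lower. Cnp, an early myelin enzyme, was higher by 0.75 ± 0.12, and Gpr37, a receptor of maturing oligodendrocytes, by 1.09 ± 0.13. Mbp, a main protein of myelin, read 6426, 8178, 6658, 8439 and 19407 on hippocampal arrays and 7357, 5935, 7256, 7178 and 7235 on amygdalar arrays and was not called (0.36 ± 0.21). Hippocampal replicate 5 stood far above all other arrays for Mbp. Of 15 microglial genes 5 were lower, 1 higher and 9 not called, with C1qb, a complement component (-1.10 ± 0.19), and P2ry12, a receptor of resting microglia (-0.61 ± 0.20), among the lower. After quantile normalization over all arrays, 2 microglial genes were lower and 1 higher, and without hippocampal replicates 4 and 5, 4 were lower and 1 higher. Of 19 vascular genes 7 were higher and none lower, among them the transporters of brain endothelium Slco1a4 (1.14 ± 0.29) and Slco1c1 (1.05 ± 0.16). Without hippocampal replicates 4 and 5, 5 vascular genes were higher and 2 lower, and the list median went from 0.25 to 0.06. Of 16 genes of the leptomeninges 4 were higher, including Ptgds (1.35 ± 0.23) and Col1a2 (0.94 ± 0.15), and 1 was lower, against 2 higher and 1 lower without those arrays. The part of these cell types in the other differences was not tested.

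Tissue that could enter a dissection differed in places. Of the choroid plexus list 7.7% were higher and 15.4% lower, against 10.4% and 19.7% of all genes. Of 13 choroid plexus genes 1 was higher (Car12, 1.21 ± 0.21), 2 were lower and 10 not called, and Ttr, the main secreted protein of that epithelium, read 1989, 2306, 2436, 3517 and 2774 on hippocampal arrays and 3911, 4576, 4006, 4481 and 2663 on amygdalar arrays (-0.59 ± 0.26, not called). Of 9 genes of red blood cells 3 were lower and 6 not called, with Hbb at -0.66 ± 0.12 and Hba-a1 at -0.13 ± 0.11, the latter not called. On these arrays even a probe that matches no transcript has an intensity, so no marker was at 0.

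Ribosomal and mitochondrial genes were mostly lower or not called. Of 65 cytosolic ribosomal protein genes 27 were lower, 2 higher and 36 not called, with Rpl11 at -0.86 ± 0.10. Of 41 genes of oxidative phosphorylation 18 were lower, 2 higher and 21 not called, although Atp5f1b, a subunit of ATP synthase, was higher by 0.84 ± 0.10. These lists hold bright features, and among the brightest 2642 features 37.8% were lower and 19.0% higher. After quantile normalization over all arrays, 19 ribosomal genes were lower and 4 higher. Of 23 immediate-early genes 7 were lower, 2 higher and 14 not called. Egr1, a transcription factor that follows neuronal activity, read 11465, 12389.9, 13040.1, 16306 and 13407 on hippocampal arrays and 23688, 27450.2, 23024, 25520.1 and 30805 on amygdalar arrays, a difference of -0.97 ± 0.09, and Arc, an activity-regulated synaptic protein, differed by 0.38 ± 0.20 and was not called. Gap43, a protein of growing axons, read 5345, 5729, 5326, 5984 and 5766 on hippocampal arrays and 13558, 13870.0, 13909, 15703 and 13096 on amygdalar arrays and differed by -1.32 ± 0.10, while Dcx, a marker of immature neurons, differed by -0.01 ± 0.18 and was not called.

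The same region difference was measured on 10 other arrays, those of P14 pups of paroxetine-exposed dams, which share no array with the controls. There 1415 genes (14.7%) were higher in the hippocampus and 3044 (31.6%) lower. All 15 leading lower genes were called lower on these arrays too, and 14 of the 15 leading higher genes were called higher. Penk differed by -3.00 ± 0.12, Calb2 by -3.43 ± 0.15 and Neurod1 by 2.85 ± 0.25 in exposed pups. The exception was Prss35, which differed by -0.15 ± 0.20 in exposed pups and was not called there. Beyond the leading genes the overlap was smaller, since of the 362 genes called higher without overlap and above the median intensity, 170 were called higher and 110 lower in exposed pups, and of the 884 such lower genes 565 were called lower and 72 higher. Of the 4837 genes left without the dimmer 50% of features, 863 were higher and 2434 lower in exposed pups. Across genes the differences of controls and exposed pups correlated at a Pearson r of 0.373, a description over 9621 genes that are not independent.

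The difference between the control and the exposed region difference was tested directly. This region by treatment term was called for 2803 genes (29.1%), with the greater value in controls for 1749 and the smaller one for 1054. For Prss35 it was 2.16 ± 0.28 (adjusted p = 5.25e-09). Kcnip2, a potassium channel partner, was higher in the hippocampus of controls (1.30 ± 0.13) and lower in that of exposed pups (-1.16 ± 0.13), a term of 2.46 ± 0.18. The potassium channel gene Kcnj10 went from 1.11 ± 0.15 in controls to -0.94 ± 0.15 in exposed pups, a term of 2.05 ± 0.22. Of the 21 measured astrocyte genes the term was called for 10. One of these, Gja1, a gap junction protein, went from 0.44 ± 0.11 to -1.03 ± 0.11, a term of 1.48 ± 0.15. Over the astrocyte list the median was 0.30 in controls and -0.31 in exposed pups, where 4 were higher and 9 lower. Slco1c1 of brain endothelium differed by 1.05 ± 0.16 and -0.82 ± 0.16, and the choroid plexus protein Ttr by -0.59 ± 0.26 and 2.03 ± 0.26, in that order. Grp differed by -2.09 ± 0.14 in controls and by -0.18 ± 0.14 in exposed pups, where it was not called, a term of -1.91 ± 0.20. The labels give no array batch, and the part of glial, vascular and choroid plexus markers in these terms was not tested.

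**Figure D4:**
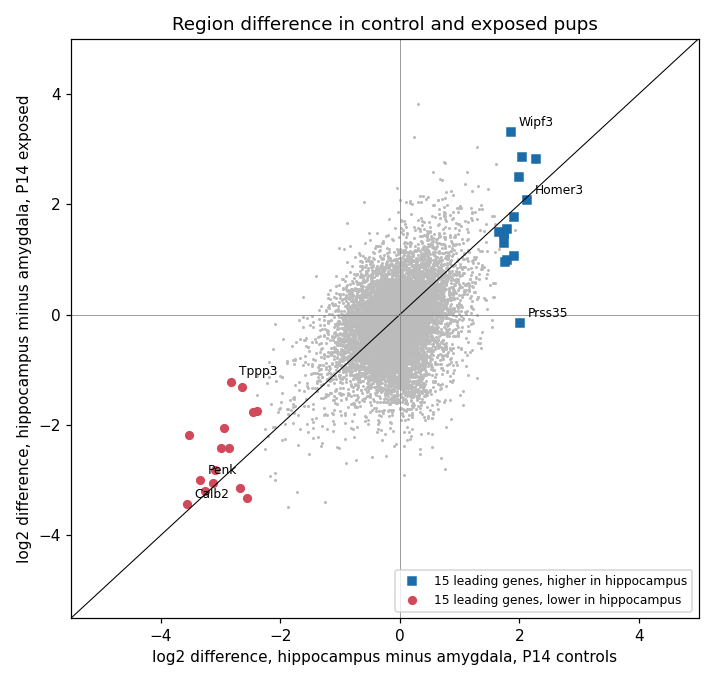
Log2 difference between hippocampus and amygdala for each of 9621 genes in P14 controls (horizontal axis) and in exposed P14 pups (vertical axis), with the line of equal values. Squares are the 15 leading higher and circles the 15 leading lower genes of the controls; Prss35 lies near 0 on the vertical axis, and the circles all lie below 0.

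At the other ages the control arrays were again different ones. Of all genes, 15.0% were called higher in the hippocampus and 17.8% lower at P7, 18.8% and 40.1% at P21, and 17.2% and 39.4% at P75. Of the 1239 measured olfactory and vomeronasal receptors, 431 were called higher at P21 and 372 at P75, with 21 and 52 called lower. Without the dimmer 50% of features, which left 4837 genes to test, the number called higher went from 1812 to 654 at P21, from 1655 to 622 at P75 and, in exposed P14 pups, from 1415 to 863. The 15 leading lower genes were called lower at P7, P21 and P75. Of the 15 leading higher genes, 9 were called higher at P7, 15 at P21 and 14 at P75, and none was called lower. Penk differed by -3.50 ± 0.12 at P7, -4.16 ± 0.12 at P21 and -3.37 ± 0.12 at P75. Neurod1 went from 2.85 ± 0.25 at P7 through 2.05 ± 0.25 at P14 and 1.83 ± 0.25 at P21 to 1.26 ± 0.25 at P75. Wipf3 differed by -0.30 ± 0.16 at P7, where it was not called, and by 2.51 ± 0.16 at P21. Lhx9 was also not called at P7 (0.45 ± 0.21).

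The wider set, also chosen for brightness, was less alike across ages than the leading genes. Of the 362 genes called higher at P14 without overlap, 243 were called higher and 12 lower at P7, but 127 higher and 126 lower at P21, and 138 higher and 111 lower at P75. Of the 884 lower genes, 612 were called lower at P7, 808 at P21 and 819 at P75, and 23, 4 and 4 were called higher. These counts stand beside those of bright genes at large. Of the 4837 genes left without the dimmer 50% of features, 1231 were higher and 1290 lower at P7. At P21 these numbers were 654 and 3237, and at P75 they were 622 and 3182.

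A region by age term set the P14 difference against the mean of the differences at P7, P21 and P75 in controls. It was called for 1708 genes (17.8%) with a greater value at P14 and for 573 (5.96%) with a smaller one. The 1708 were 74.9% of the called genes, and this share was 63.1% after quantile normalization and 86.4% without the dimmer 50% of features. Slc17a7, the vesicular glutamate transporter, was higher in the hippocampus at P7 (0.83 ± 0.10) and P14 (1.04 ± 0.10) and lower at P21 (-0.49 ± 0.10) and P75 (-0.27 ± 0.10), a term of 1.01 ± 0.11. Grin1 differed by -0.22 ± 0.10 and -0.07 ± 0.10 at P7 and P14, with no call, and was lower at P21 (-1.47 ± 0.10) and P75 (-1.15 ± 0.10). Slc1a3 of astrocytes was higher at P7 (2.08 ± 0.11) and P14 and lower at P21 (-0.65 ± 0.11), and differed by -0.16 ± 0.11 at P75 without a call. Without the dimmer 50% of features, the median difference over the remaining features was 0.02 at P7, -0.05 at P14, -0.50 at P21 and -0.48 at P75. Over the same features the median region by age term was 0.21. Slc17a7, Grin1 and Slc1a3 are bright genes, and the part of this general shift in their values was not tested.

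Among called genes the most positive terms were those of Htr2c (1.79 ± 0.29), Prss35 (1.68 ± 0.23), Nell2, a secreted neuronal protein (1.61 ± 0.14), Scn2b (1.56 ± 0.21) and Kcnip2 (1.56 ± 0.15). Htr2c, a serotonin receptor, was lower in the hippocampus at every age, by -0.80 ± 0.25 at P7, -1.25 ± 0.25 at P14, -4.08 ± 0.25 at P21 and -4.26 ± 0.25 at P75. The most negative terms were those of Ccdc33 (-2.10 ± 0.30), Aurkb, a mitotic kinase (-1.75 ± 0.28), Tpbg, a membrane glycoprotein (-1.28 ± 0.25), Tppp3 (-1.25 ± 0.19) and Lrrc46 (-1.23 ± 0.31). Aurkb was lower at P14 (-1.48 ± 0.25) with 136, 93.6, 121, 78.8 and 156 in the hippocampus and 269, 499.6, 263, 293 and 305 in the amygdala, and differed by -0.01 ± 0.25 at P7 and 0.50 ± 0.25 at P21 without a call. Of 14 measured cell cycle genes 2, Aurkb and Aurka, were lower at P14 and 12 were not called. The lower ones were 14.3% of the list, against 19.7% of all genes. Without hippocampal replicates 4 and 5 the term was called for 3708 features against 6078 with them.

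**Figure D5:**
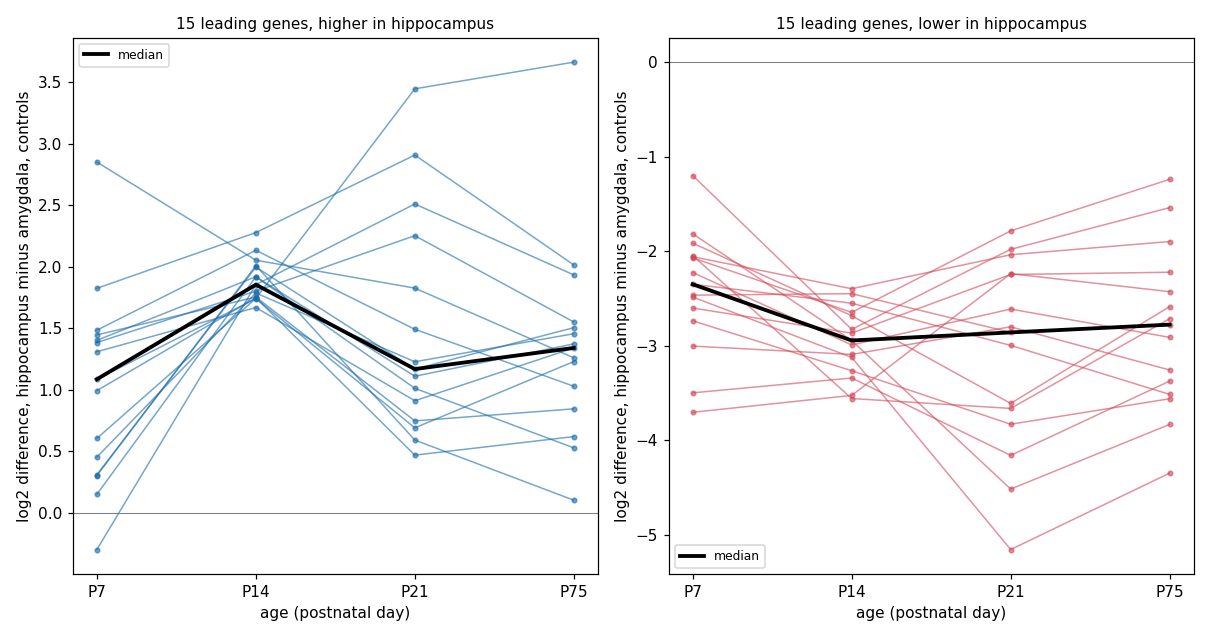
Log2 difference between hippocampus and amygdala in controls (vertical axis) at P7, P14, P21 and P75 for the 15 leading higher genes (left) and the 15 leading lower genes (right), which were chosen at P14. Thin lines are genes and the thick line is their median; the lower genes stay below 0 at each age, while at P7 one of the higher genes, Wipf3, lies below 0.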

How the data were processed

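Per the labels' protocols, TRIzol-extracted RNA of each region underwent linear amplification and was made into Cy3-labelled cDNA for single-colour NimbleGen arrays. The authors deposited a value table whose entries are normalized intensities on a linear scale. How they were normalized is not given in the sources used here. Groups were taken from the labels, with 5 arrays each for the hippocampus and the amygdala of P14 controls. The authors' comparison tables held 312 more per-array columns that no label matched, and these were left out.

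The table held 26420 features, of which 1 random control probe was set aside. Names for 9740 features came from a RefSeq gene table (assembly GRCr8, names only), and 16679 features that it did not name were unnamed here. The brightest feature by mean log2 intensity stood for its gene, giving 9621 genes. The log2 of the deposited intensities was used without pseudocount, filter or further normalization. limma 3.58.1 (R 4.3.3, statmod 1.5.0) fitted 16 groups to all 78 arrays, with eBayes. Tests were two-sided, at an adjusted p (Benjamini-Hochberg) of 0.05 over 26419 features. The fit was tested on simulated data.

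Named are the 15 largest positive and 15 largest negative differences among called genes whose groups did not overlap and whose higher mean was above 7.79 (the median log2 intensity), the 5 most positive and 5 most negative region by age terms under the same conditions, and members of the 42 gene lists. A few genes that these rules name are not reported here, though counts include them. The comparison, lists, rules and tests were chosen with earlier results of these data known. Alternatives were quantile normalization, centring of array medians, array weights, trend and robust moderation, a filter on the dimmer 50% of features, fits of fewer arrays, replicate blocks, leaving out arrays, plain unpaired t-tests and averaging the features of a gene. Deviations of same-numbered arrays correlated at -0.08 to 0.07, and those of other numbers at -0.14 to 0.15. With so few arrays, and regions that may have been normalized separately, this check cannot decide whether replicate numbers pair the regions. Promoter windows were matched by symbol, for 11 of the 15 leading higher and 10 of the 15 leading lower genes. The number of arrays limits the precision of every value.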

Additional observations from a re-analysis of the deposited data

Results flagged for a closer look

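Among the 38 genes named by their differences and the random probe, checked in each region, 5 values stood farther from the other arrays of their group than a Dixon test at its 95% level allows, and chance gives about 1 such value in 20 groups. Penk read 17207.7 on amygdalar replicate 1, with 19424.2 to 20390.9 on the others. Rgs9 read 691.1 on amygdalar replicate 5, against 1387.0 to 1575.8, and Sema3a read 619.9 on the same array, against 895.1 to 923.4. Cpg1 read 136.2 on hippocampal replicate 5, against 242.3 to 298.5. Aurkb read 499.6 on amygdalar replicate 2, against 262.7 to 305.0. All 5 genes kept their calls when each array was left out in turn.

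The region difference of control pups differed from that of exposed pups at P14 for 7428 of 26419 features by the region by treatment term of limma (Benjamini-Hochberg). For those of the 38 genes named by their differences whose term was called and greater in controls, it was 2.46 for Kcnip2, 2.29 for Scn2b, 2.16 for Prss35, 2.15 for Htr2c, 1.18 for Nell2, 0.85 for Grik4 and 0.80 for Mas1. In the other direction, among these genes, it was -1.61 for Tppp3, -1.51 for Tpbg, -1.50 for Lrrc46, -1.45 for Wipf3, -1.45 for Aurkb, -1.41 for Ccdc33, -1.34 for Six3, -1.33 for Hs3st2, -0.88 for Lypd1, -0.68 for Hpcal1 and -0.66 for Asic2.

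The P14 region difference differed from the mean of the other ages in controls for 6078 features by the region by age term. Among the same 38 genes, the called terms were 1.79 for Htr2c, 1.68 for Prss35, 1.61 for Nell2, 1.56 for Scn2b, 1.56 for Kcnip2, 1.05 for Nptx1, 1.04 for FAM187A, 1.00 for Or5d37, 0.94 for Grik4, 0.87 for Atp2b4, 0.80 for Homer3, 0.74 for each of Lhx9, Mas1 and Grin2a, 0.48 for Cabp7 and 0.44 for Lypd1. It was -2.10 for Ccdc33, -1.75 for Aurkb, -1.28 for Tpbg, -1.25 for Tppp3, -1.23 for Lrrc46, -0.95 for Hs3st2, -0.75 for Calb2 and -0.74 for Six3. Both terms include the P14 control arrays.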

How the results depend on the processing

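All 30 leading genes kept their direction and call in each alternative that measured them; leaving out the dimmer 50% of features dropped 6 of them. Of 202 called genes among the 231 named or listed for naming, 162 to 202 kept the call, and none turned its sign with a call. For P14 controls, 8001 features were called, 6923 to 8299 when leaving out each array in turn. The count was 4071 with quantile normalization over the 10 arrays, 3995 in a fit of those 10 arrays and 3792 by a plain unpaired t-test. Genes higher in the hippocampus (1004, or 876 to 1008 without 1 array) numbered 630, 499 and 468 in these settings, and genes lower (1900, or 1654 to 1974) numbered 903, 1014 and 1055. With a replicate block in the fit of 10 arrays, 2854 features, 355 higher and 703 lower genes were called. The labels do not state a pairing, and the weak correlation of same-numbered arrays cannot decide it. The region by age count of 6078 features was 4886 to 6187 without each array and 3708 without hippocampal replicates 4 and 5. The region by treatment count was 7074 to 7451. The total feature counts in exposed pups and at P7, P21 and P75 stayed within 1.5 times of their values in each alternative run, but without the dimmer 50% of features the genes higher, among 4837 tested, numbered 863 against 1415 in exposed pups, 654 against 1812 at P21 and 622 against 1655 at P75. Among called genes the share with a positive region by treatment term was 62.4%, and 51.9% after array medians were centred, which moved the median of that term over all features from 0.03 to -0.08.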

Other observations

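Genes of acetylcholine signalling were measured for 18 members, of which 7 were lower in the hippocampus of P14 controls, 2 higher and 9 not called. Chrm3, a muscarinic receptor coupled to calcium release, read 1141, 1213, 1094, 1373 and 1442 on hippocampal arrays and 426, 497, 462, 677 and 796 on amygdalar arrays and was higher by 1.17 ± 0.20. Chrm2, an inhibitory muscarinic receptor, was lower by -0.92 ± 0.21, and Ache, which degrades acetylcholine, by -0.80 ± 0.12. Of 16 retinoid genes 6 were lower, 2 higher and 8 not called, with Cyp26b1 (-2.55 ± 0.22) and Rxrg (-2.04 ± 0.15) on the amygdalar side and Aldh1a1, which makes retinoic acid, on the hippocampal side (1.02 ± 0.27, or 0.70 and not called without hippocampal replicates 4 and 5).

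Marker lists of neighbouring regions gave mixed counts. Over all genes 10.4% were higher and 19.7% lower, and the hypothalamic list, at 16.7% each way, was not far from these shares. Of 9 genes of piriform cortex and neocortex 4 were lower and 2 higher, of 8 genes of thalamus and habenula 4 were lower and 1 higher, and of 12 hypothalamic genes 2 were lower and 2 higher. The thalamic list held Calb2 and Tac1, which amygdalar neurons also express, and its summed intensity was 3391 to 4614 in the hippocampus and 12128 to 13450.5 in the amygdala. Rprm, a cortical layer marker, was lower in the hippocampus (-1.76 ± 0.19). Of 13 genes for the supply of monoamines 2 were higher and 1 lower, with Maob, which degrades them, at 0.78 ± 0.24, or 0.42 and not called without hippocampal replicates 4 and 5. Of 16 genes of immature neurons 7 were lower and 3 higher. Of 5 ependymal genes 2 were lower, and of 5 genes of oligodendrocyte precursors 1 was lower (20%, near the share of all genes).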
